A study of Mus musculus with 4 samples.

Results

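Aqp3-positive principal cells that carry the epithelial sodium channel were 350 of the 27343 nuclei kept from mouse kidney tissue enriched for the medulla. A nucleus was a member when it held at least 3 UMIs (unique molecular identifiers, each standing for 1 captured RNA molecule) of Aqp2, at least 2 of Aqp3 and at least 1 of Scnn1b and Scnn1g added together, with at most 2 UMIs each of Slc12a1 and Slc12a3, the cotransporters that mark the thick ascending limb and the distal convoluted tubule. Of the nuclei kept, 1381 passed the Aqp2 limit, 560 of these the Aqp3 limit and 364 the sodium channel limit, and the cotransporter limit then removed 14, each because of Slc12a1. The values that chose the nuclei are UMIs of these 6 genes, so their levels are given as a description.

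Single-nucleus RNA-seq was performed on kidney slices from which cortex had been trimmed to enrich for the medulla, from 4 male mice that were 12 weeks old, with 1 library per mouse. All 4 mice carried loxP-flanked Tfap2a alleles (Tfap2a fl/fl). The 2 cKO mice also carried Hoxb7Cre, a Cre recombinase active in the ureteric bud lineage that forms the collecting duct, and the 2 control mice were Cre-negative littermates. Recombination removes exons 5 and 6 of Tfap2a, and the UMIs count 3′ ends of RNA, so a Tfap2a UMI does not check the deletion, and nuclei in which the Cre had not acted cannot be told apart from the others. Control 1, control 2, cKO 1 and cKO 2 gave 60, 133, 110 and 47 members, which held 219793, 505722, 416755 and 173899 UMIs in all. The median member held 3429 UMIs and the median of all nuclei 2628. The libraries held between 22179410 and 44964099 UMIs and kept between 5430 and 7998 nuclei, and the median mitochondrial percentage of the members was 1.62, 0.767, 0.948 and 0.389 in the same order of mice. Of the members, 1, 7, 11 and 2 were called doublets. No barcode was a member in more than 1 library.

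Principal cells take up sodium through the epithelial sodium channel, made of the α, β and γ subunits encoded by Scnn1a, Scnn1b and Scnn1g, and water through aquaporins: AQP2 is moved to the apical membrane by vasopressin, and AQP3 and AQP4 let the water out on the basolateral side. Aldosterone acts on these cells through the mineralocorticoid receptor (Nr3c2), which HSD11B2 shields from glucocorticoids by inactivating them. Upstream lies the connecting tubule, whose cells also reabsorb calcium, and downstream the inner medullary collecting duct, which also transports urea. TFAP2A is an AP-2 transcription factor.

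The nuclei carried principal cell markers that the rule did not use. Hsd11b2 was detected in 96.9% of the 350 members and in 2.98% of 14671 proximal tubule nuclei, which should lack it and whose median depth was 3120 UMIs. Fxyd4, a regulator of the sodium pump, was found in 92.6% and 4.60% of the same nuclei, Npy, a neuropeptide, in 60.3% and 1.21%, Scnn1a in 73.4% and 6.84%, and Avpr2, the vasopressin receptor, in 51.1% and 0.511%. Summed over all members, Hsd11b2 stood at 2982 CPM (UMIs of the gene for every 1e6 UMIs of the sum), Fxyd4 at 2345 and Npy at 752, against 48.9, 92.4 and 24.5 CPM in all other nuclei. Scnn1b, Scnn1g and Scnn1a were detected together in 51.1% of the members. Nphs1, the podocyte slit diaphragm gene, had no UMI in any member. Of the list of 6 podocyte genes, 3 were at 0 over the members. The list as a whole was not lower, at 2093 CPM in members and 1349 CPM in all other nuclei.

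Members just inside and just outside each limit are given without a test. The 95 nuclei outside the rule with 1 Aqp3 UMI held 13238 CPM of Slc8a1, the sodium-calcium exchanger of the connecting tubule. The 56 members with 2 Aqp3 UMIs held 9004 CPM of Slc8a1 and the 294 with more held 3033. For the sodium channel limit, Hsd11b2 stood at 368 CPM in the 191 nuclei without Scnn1b or Scnn1g UMIs, at 2122 CPM in the 71 members with 1 such UMI and at 3167 CPM in the 279 with more. The 14 nuclei dropped for Slc12a1 held 3224 CPM of Umod, the uromodulin gene of the thick ascending limb, where all members held 248 CPM.

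The members made up 0.775% of the nuclei in control 1 (95% exact binomial interval 0.592 to 0.997%), 2.45% in control 2 (2.05 to 2.90%), 1.38% in cKO 1 (1.13 to 1.66%) and 0.761% in cKO 2 (0.560 to 1.01%); the intervals cover counting error only. The highest and the second lowest share were both from controls, and the groups overlapped. The mean was 1.61% ± 1.18 (SD, n = 2) in control and 1.07% ± 0.434 in cKO mice (two-sided exact permutation test over mice, p = 0.667, where 0.333 is the smallest p that 2 against 2 mice allow). Among nuclei with at least 2000 UMIs, each thinned to 2000, the means were 1.30% and 0.978%. This left out 2415, 1586, 2739 and 1522 shallower nuclei of control 1, control 2, cKO 1 and cKO 2. As a share of the nuclei with at least 3 Aqp2 UMIs, the members were 17.6, 25.9, 33.5 and 23.6% in control 1, control 2, cKO 1 and cKO 2, and the cKO mean was then higher, by 6.82 percentage points (exact p = 0.667). The share thus had no direction that held under both denominators.

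**Figure D1:**
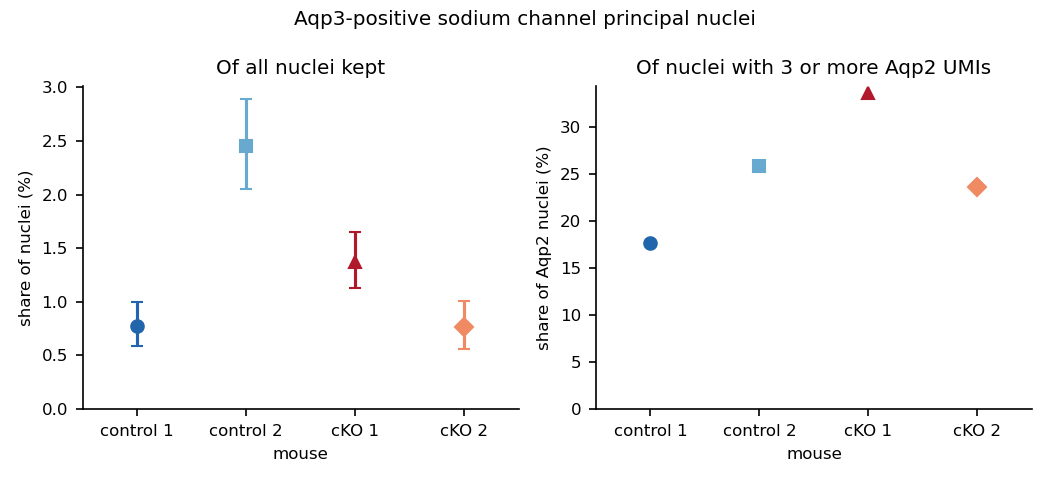
Share of Aqp3-positive sodium channel principal nuclei in each mouse (x axis), of all nuclei kept (left, %, bars: 95% exact binomial intervals) and of nuclei with 3 or more Aqp2 UMIs (right, %). Control 2 is highest on the left, at 2.45%, and cKO 1 on the right, at 33.5%.

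The members differed among themselves in genes of the connecting tubule. Of the 350 members, 150 held no Slc8a1 UMI, 150 held 1 to 9 and 50 held 10 or more, and these 50 carried 93.0% of the members' Slc8a1 UMIs. In the 50 nuclei, S100g, a cytosolic calcium-binding protein, stood at 13452 CPM and Calb1, another one, at 4606 CPM, against 144 and 124 CPM in the 150 nuclei without Slc8a1. The calcium channel gene Trpv5 stood at 453 and 3.94 CPM in the same groups of nuclei. Of the principal cell genes, Npy, Fxyd4, Aqp2 and Aqp3 ran the other way. Npy stood at 957 CPM in the nuclei without Slc8a1 and 51.8 CPM in the 50 nuclei. Fxyd4 was at 2872 and 656 CPM, Aqp2 at 8607 and 3912 CPM and Aqp3 at 1935 and 936 CPM. Hsd11b2, in contrast, was at 2909 and 3200 CPM and Avpr2 at 260 and 237 CPM. The channel subunits ran with Slc8a1, with Scnn1b at 516 and 772 CPM and Scnn1g at 421 and 867 CPM. Wnt9b, a Wnt ligand of the collecting duct, stood at 84.6 and 12.9 CPM, and Tfap2a at 118 and 116 CPM. The split was made after these values were seen and carries no test.

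**Figure D2:**
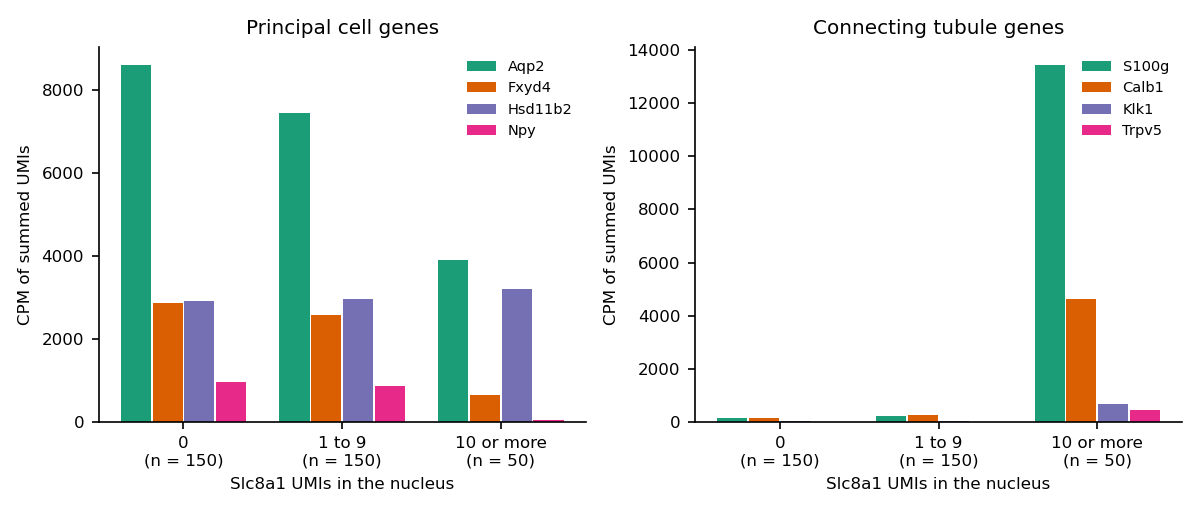
Levels in CPM of summed UMIs (y axes) of principal cell genes (left) and connecting tubule genes (right) in members with 0, 1 to 9 and 10 or more Slc8a1 UMIs (x axes, with n nuclei; bars: 1 value over all mice, with no error). S100g reaches 13452 CPM and Npy 51.8 CPM in the group with 10 or more. Of the 186 Klk1 UMIs in all members, 115 lay in 1 nucleus.

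The share of members with 10 or more Slc8a1 UMIs was 10.0% in control 1, 8.27% in control 2, 24.5% in cKO 1 and 12.8% in cKO 2. Calb1 UMIs were found in 33.3, 21.8, 62.7 and 40.4% of members in the same order, so that for both measures cKO 1 was highest and both cKO mice were above both controls. The median depth of the members was 3301, 3437, 3668.5 and 3172 UMIs in the same order. What this mixture adds to the genotype values given below was not tested beyond the comparisons without these nuclei.

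Intercalated cells, which secrete acid or base and lie between principal cells, left 3 or more UMIs of their marker genes in 16, 35, 29 and 13 members of control 1, control 2, cKO 1 and cKO 2. Slc26a4, the pendrin gene that defines type B cells, was detected in 15 members, and 5 of them held 216 of its 298 UMIs. The summed level of the 6 genes of the type B list was 651, 225, 965 and 1196 CPM in control 1, control 2, cKO 1 and cKO 2. That of the 10 proximal tubule genes was 11643, 4317, 14877 and 2358 CPM, highest in cKO 1 and lowest in cKO 2. It was 26525 CPM in all other nuclei. Most of this sum was Kap, with 10208 UMIs in members and found in 99.4% of them. Without Kap the list made up 0.0942, 0.0676, 0.127 and 0.0368% of the members' UMIs in the same order of mice. None of the genes of either list was at 0 over the members, and their part in the values below was not tested beyond the comparisons without such nuclei. UMIs from outside the nuclei were estimated at 12.8, 9.88, 16.5 and 5.14% of the members' UMIs.

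Aqp3-low principal nuclei, defined by the same limits but without any Aqp3 UMI, were the closest comparison. There were 120 of them, 16, 47, 36 and 21 in control 1, control 2, cKO 1 and cKO 2, with a median of 2528.5 UMIs. Against them the Aqp3-positive nuclei carried more Npy, Fxyd4 and Hsd11b2 and less of the calcium-transporting genes of the connecting tubule. Sums per mouse and class were compared with edgeR's quasi-likelihood test with the mouse as a term and Benjamini-Hochberg adjustment over all 11192 genes; 369 genes (3.3%) were higher and 115 (1.03%) lower in the Aqp3-positive nuclei. These counts were 113 and 49 under DESeq2, 230 and 41 after thinning to 2000 UMIs and 87 and 35 without control 2, and the median log2 difference over all genes was 0.13. Thinning here left out nuclei under 2000 UMIs and kept the classes as set on the full counts, so the limits themselves were not matched for depth.

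Npy stood at 628, 1050, 406 and 874 CPM in the members of control 1, control 2, cKO 1 and cKO 2 and at 22, 212, 48.2 and 111 CPM in their Aqp3-low nuclei. Every member value was above every Aqp3-low value, and the log2 difference was 2.93 (SE 0.30, adjusted p 3.21e-19 by edgeR). Hsd11b2 stood at 2834, 2958, 3187 and 2749 CPM in members and at 2003, 1014, 1965 and 952 CPM in Aqp3-low nuclei, again without overlap (log2 difference 1.17, SE 0.23, adjusted p 8.49e-05 by edgeR). Fxyd4 was higher by 2.21 on the log2 scale (SE 0.25, adjusted p 9.14e-16 by edgeR), with 1586 to 2820 CPM in members and 260 to 1050 CPM in Aqp3-low nuclei. Aqp4 and Avpr2 were higher too, by 1.19 (SE 0.24, adjusted p 0.000122) and 0.97 (SE 0.29, adjusted p 0.026), both by edgeR. These were the 2 that passed the test among 15 genes for water transport and vasopressin response, rule genes left out, with 0 lower. Over all genes 3.3% were higher and 1.03% lower.

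The connecting tubule list ran the opposite way, with 5 of 7 genes lower in the Aqp3-positive nuclei, 0 higher and a median log2 difference of -1.60. Over all genes 1.03% were lower and 3.3% higher. Slc8a1 stood at 3885, 2149, 6572 and 3174 CPM in members of control 1, control 2, cKO 1 and cKO 2 and at 19019, 7652, 22393 and 27597 CPM in Aqp3-low nuclei. The classes did not overlap (log2 difference -2.13, SE 0.25, adjusted p 8.97e-14 by edgeR). Klk1, the tissue kallikrein gene, was at 573, 43.5, 67.2 and 57.5 CPM in members and at 2598, 233, 1397 and 175 CPM in Aqp3-low nuclei of the same mice, lower in each mouse (log2 difference -2.68, SE 0.27, adjusted p 1.87e-19 by edgeR). Of its 186 UMIs in members, 145 lay in 5 nuclei and 115 of these in 1 nucleus, so the member values rest on few nuclei. Calb1, S100g and Trpv5 were the other members of the list that were lower, by -1.60, -1.04 and -1.74 on the log2 scale. In the longer list of calcium and connecting tubule transport genes 8 of 13 were lower and 0 higher; the additional ones were Atp2b4, a plasma membrane calcium pump (log2 difference -2.84), Slc2a9, a urate transporter (-2.55), and Vdr, the vitamin D receptor (-1.76).

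When nuclei with a Calb1 UMI were left out of both classes, 44 genes were higher and 4 lower. The Slc8a1 difference was then -0.28 (adjusted p 0.953 by edgeR) and that of Klk1 1.35 (adjusted p 0.854), both no longer called. Among the lists for other cell types, 4 of 6 type B intercalated genes were higher in the Aqp3-positive nuclei: Slc26a4, Hmx2, Insrr and Spink8. Over all genes 3.3% were higher and 1.03% lower. Slc26a4, at 250, 3.95, 386 and 460 CPM in members against 22, 0, 9.63 and 0 CPM, had a log2 difference of 5.27 (SE 0.58, adjusted p 1.84e-16 by edgeR) and rests on the few members described above. Insrr and Hmx2 had 38 and 39 UMIs in all members and none in Aqp3-low nuclei. Each was detected in 12 members, and the 5 with most UMIs of the gene held 28 and 30 of these. Of 10 proximal tubule genes, Slc5a12, Lrp2 and Slc34a1 were lower and 0 higher.

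Other genes higher in Aqp3-positive than in Aqp3-low nuclei included Wnt9b, by 1.90 on the log2 scale (SE 0.57, adjusted p 0.026 by edgeR). It stood at 86.4, 98.9, 26.4 and 28.8 CPM in members and at 22, 14.6, 9.63 and 31.7 CPM in Aqp3-low nuclei of control 1, control 2, cKO 1 and cKO 2, so the class difference was seen in 3 of 4 mice. In the same order of mice the Aqp3-low sums held 45428, 137093, 103826 and 63014 UMIs, so the Wnt9b values there rest on few UMIs. Of the Wnt list, 2 of 30 genes were higher and 0 lower, where 3.3% and 1.03% of all genes were. These were Wnt9b and Fzd1, a Wnt receptor with no UMI in any Aqp3-low library. Cldn8 and Cldn7, claudins of tight junctions, were higher by 1.03 and 1.13, and Cdh16, Cdh2 and Epcam, which join cells, by 1.15, 1.19 and 1.41. Among all genes of at least 50 CPM that were higher in each mouse, the 10 with the highest log2 difference were Slc26a4, Fam84a, Cspg4, Slc4a5, Plcg2, Npy, Psme1, Aldh1a1, Prelid3b and Fam45a, from 2.48 to 5.27, and the lower ones besides those named above were Gem, Ush1c, Gm20696, Arnt2 and Sh3rf3, from -2.40 to -2.06. Of 9 AP-2 genes tested, Cited4, a transcriptional cofactor, was higher (log2 difference 2.22). Tfap2a did not pass the test, at 0.18 (SE 0.34, adjusted p 0.891 by edgeR), nor did Tfap2b at 0.13 (SE 0.30, adjusted p 0.909).

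Aqp3-positive nuclei without a Scnn1b or Scnn1g UMI, 191 in all with a median of 4321 UMIs, were the comparison on the other side. Against these the sodium channel nuclei carried more genes of aldosterone response, potassium channels and the connecting tubule, and less urea transporter and heat shock RNA. Of 11696 genes tested with edgeR in the same way, 1042 (8.91%) were higher and 912 (7.8%) lower in the sodium channel nuclei, and 397 and 348 under DESeq2. In this comparison the sodium channel nuclei were the shallower class.

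The α subunit, which the rule did not use, followed the other subunits. Scnn1a stood at 528, 423, 487 and 408 CPM in the members of control 1, control 2, cKO 1 and cKO 2 and at 24.2, 35.6, 71.2 and 13.8 CPM in the nuclei without the other subunits, with no overlap (log2 difference 3.72, SE 0.25, adjusted p 2.55e-28 by edgeR). Of the 17 genes of the sodium and aldosterone list besides Scnn1b and Scnn1g, 12 were higher and 3 lower. Over all genes 8.91% were higher and 7.8% lower. Hsd11b2 was higher by 3.04 (SE 0.18), Nr3c2 by 1.72 (SE 0.16), Nedd4l, a ubiquitin ligase that removes the channel from the membrane, by 1.25 (SE 0.16), and Atp1b1, a sodium pump subunit, by 0.73. The 3 lower genes were Tsc22d3 (-1.69), a steroid-induced leucine zipper protein, Fxyd2 (-1.28), a sodium pump subunit, and Sgk1 (-0.91), a kinase induced by aldosterone. Potassium and chloride channels were higher in 8 of 13 and lower in 0, with Kcnj1 (ROMK) at 2.82, Kcnj10 at 3.12 and Kcne1 at 4.64. Connecting tubule genes were higher in 6 of 7 and lower in 0, Slc8a1 by 5.04 (SE 0.19) and Calb1 by 4.40 (SE 0.23), and Trpv5 had no UMI in any library of the nuclei without the channel. The other genes with the highest log2 differences were Egfem1, Kctd8, AI838599, Nexmif, Atp2b2, Ppp2r2b and Gm36388.

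Slc14a2, the urea transporter of the inner medullary collecting duct, stood at 36.4, 11.9, 2.40 and 34.5 CPM in members and at 290, 476, 522 and 627 CPM in nuclei without the channel (log2 difference -4.79, SE 0.27, adjusted p 1.25e-34 by edgeR). Its 21 UMIs in members lay in 5 nuclei. Aldh1a3, which makes retinoic acid, was at 27.3, 21.8, 0 and 92.0 CPM against 416, 1227, 554 and 971 CPM (log2 difference -4.95, SE 0.26, adjusted p 5.09e-38 by edgeR). Neither gene overlapped between the classes. Of the tonicity and osmolyte list 8 of 13 genes were lower and 2 higher, against 7.8% and 8.91% of all genes. Akr1b3, the aldose reductase that makes sorbitol, was at -3.30. The heat shock genes Hspb1, Cryab, Hspa1b and Hspa1a were at -3.27, -2.49, -2.11 and -1.88. The lower adhesion genes included Itga2 (-4.65) and Alcam (-1.51), and Elf5 and Elf3, epithelial transcription factors, were lower by -2.19 and -1.46. Fam124a, Gsdmc3, St8sia6, AC109617.1, Acpp, Tbx3os1 and Gm2682 were the other lower genes with the widest differences, from -5.65 to -4.43. Fxyd4 did not pass the test (log2 difference -0.13, SE 0.14, adjusted p 0.633 by edgeR).

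Tfap2b, the other AP-2 gene of the distal nephron, separated the sodium channel nuclei from those without the channel, whereas Tfap2a did not. Tfap2b stood at 118, 109, 180 and 144 CPM in members and at 4.03, 6.47, 55.4 and 6.89 CPM in nuclei without the channel (log2 difference 3.18, SE 0.36, adjusted p 2.84e-13 by edgeR), with no overlap. Tfap2a stood at 141, 121, 48.0 and 115 CPM against 88.8, 129, 79.1 and 96.4 CPM (log2 difference 0.06, SE 0.24, adjusted p 0.924). Tfap2a was detected in 27.7% of members, Tfap2b in 36.3% and both in 12.0%. Wnt9b was lower in the sodium channel nuclei than in those without the channel (-0.84, SE 0.26, adjusted p 0.0147 by edgeR), and higher than in the Aqp3-low nuclei, as given above.

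**Figure D3:**
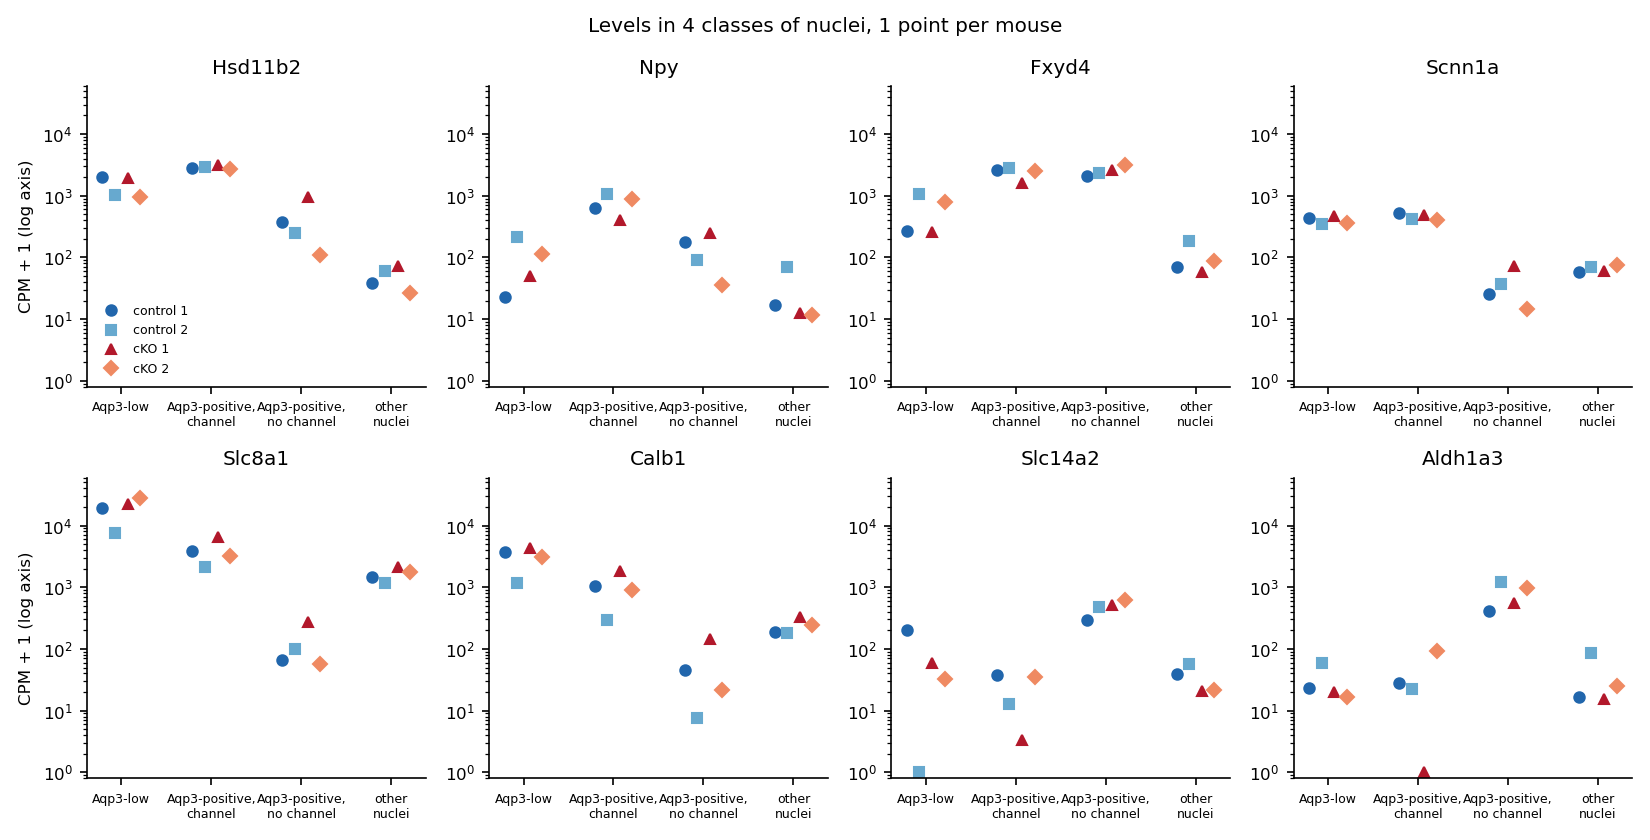
Levels of 8 genes (CPM + 1, log axis) in Aqp3-low nuclei, Aqp3-positive nuclei with and without sodium channel UMIs, and all other nuclei (x axes), 1 point per mouse. Hsd11b2 and Npy are highest in the Aqp3-positive sodium channel nuclei, Slc8a1 and Calb1 in Aqp3-low nuclei, and Slc14a2 and Aldh1a3 in nuclei without the channel.

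The genotype comparison asked which genes differ in these nuclei when Tfap2a is deleted in the collecting duct lineage. Genes entered the test with 10 or more UMIs in the 4 sums together. Of 10594 such genes, 1 passed edgeR's quasi-likelihood test at an adjusted p under 0.05 (0.00944%): Ranbp3l, a RAN-binding protein gene, was lower in cKO mice. No gene was called higher by edgeR, where 274 genes (2.59%) were higher and 248 (2.34%) lower at an unadjusted p under 0.05, and DESeq2 called 1 higher, S100g. In 33.1% of the genes tested the 2 control and the 2 cKO values did not overlap. Leaving out 1 mouse at a time gave between 10 (without cKO 1) and 18 (without control 1) lower and between 6 (without control 2) and 59 (without control 1) higher genes, with 12 and 17 lower without control 2 and cKO 2 and 17 and 45 higher without cKO 1 and cKO 2; in these fits the spread comes from the group that keeps 2 mice, and the lone mouse is assumed to vary like them. Depth was lowest in cKO 2, where 1 UMI amounted to 5.75 CPM. The replicate number was not a term in the main fit, and counts with it as a block are given further below.

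Ranbp3l stood at 705 and 498 CPM in control 1 and control 2 (155 and 252 UMIs) and at 132 and 161 CPM in cKO 1 and cKO 2 (55 and 28 UMIs). Both cKO mice were below both controls, and the log2 difference was -2.06 (SE 0.29, adjusted p 0.0242 by edgeR). It was detected in 162 members, and the 5 with most UMIs held 56 of its 490 UMIs. The same order was seen in Aqp3-positive nuclei without the channel, with 1598 and 1279 against 704 and 544 CPM, in Aqp3-low nuclei, with 286 and 656 against 96.3 and 190 CPM, and in all other nuclei, with 445 and 509 against 204 and 204 CPM. Levels over all other nuclei also depend on their mix of cell types, whose part was not tested. In control mice 340 of 7738 and 514 of 5430 nuclei held at least 3 Aqp2 UMIs. In cKO mice 328 of 7998 and 199 of 6177 did. The Ranbp3l call was lost when doublets were left out (adjusted p 0.105 by edgeR, the highest over the alternatives) and at 3 or more Aqp3 UMIs, while the log2 difference lay between -2.82 and -1.82 over all alternatives. Ranbp3l lies on chromosome 15, from 8967949 to 9067335 of GRCm38.

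Wnt9b, at 86.4 and 98.9 CPM in control and 26.4 and 28.8 CPM in cKO mice (19, 50, 11 and 5 UMIs), was not called (log2 difference -1.79, SE 0.40, unadjusted p 0.000342, adjusted p 0.279 by edgeR; adjusted p 0.0164 to 1.00 over the alternatives). Both cKO values were below both controls. Tfap2a stood at 141 and 121 CPM in control and 48.0 and 115 CPM in cKO mice, without overlap (-0.85, SE 0.37, adjusted p 0.980 by edgeR); most of the difference came from cKO 1, and without it the value was -0.17. Tfap2b was at 118 and 109 against 180 and 144 CPM (0.53, SE 0.29, adjusted p 0.986) and Alcam, an adhesion gene, at 232 and 129 against 170 and 132 CPM (-0.17, SE 0.32, adjusted p 0.995), both by edgeR.

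Promoter sequences of 3 genes are shown because the deleted factor binds DNA: the called gene, Wnt9b, and the marker Fxyd4. They run from 250 bases before to 50 after a RefSeq start, 5′ to 3′ on the gene's strand (RefSeq, GRCm38.p6). Capitals mark GCCNNNGGC, the palindromic AP-2 site, which reads the same on both strands and was searched without mismatches.
Ranbp3l, chr15:8967699-8967998, plus strand: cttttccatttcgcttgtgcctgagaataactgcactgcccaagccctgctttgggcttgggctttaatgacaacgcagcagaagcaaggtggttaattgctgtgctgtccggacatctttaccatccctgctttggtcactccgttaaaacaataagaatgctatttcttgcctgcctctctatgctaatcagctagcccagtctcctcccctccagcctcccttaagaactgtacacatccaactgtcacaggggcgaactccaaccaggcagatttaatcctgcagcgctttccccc
Wnt9b, chr11:103749772-103750071, minus strand: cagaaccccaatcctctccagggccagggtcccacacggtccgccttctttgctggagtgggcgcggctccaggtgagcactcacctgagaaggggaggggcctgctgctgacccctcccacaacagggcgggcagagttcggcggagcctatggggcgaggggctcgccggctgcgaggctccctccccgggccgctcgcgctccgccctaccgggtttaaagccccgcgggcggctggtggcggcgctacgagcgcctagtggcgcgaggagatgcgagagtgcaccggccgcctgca
Fxyd4, chr6:117937286-117937585, minus strand: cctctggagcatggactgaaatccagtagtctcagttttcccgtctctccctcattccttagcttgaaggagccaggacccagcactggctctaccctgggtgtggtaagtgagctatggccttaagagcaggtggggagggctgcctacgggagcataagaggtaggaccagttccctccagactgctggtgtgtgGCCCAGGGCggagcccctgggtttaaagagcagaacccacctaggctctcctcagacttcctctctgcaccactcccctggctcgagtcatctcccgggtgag
The letters matched once in the Fxyd4 promoter, with the first base at position -53 from the start, and not in the other 2. Of 11 genes looked up (the 6 marker genes, Scnn1g, Wnt9b, Ranbp3l, Tfap2a and Alcam), 10 had 11 promoters in the table, and the motif was in 1 of these (9.09%), where 16.6% of all 32851 promoters held it. A match is a sequence of letters in this window and no record of binding.

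Levels of the principal cell markers did not pass the test between genotypes. Hsd11b2 was at 2834 and 2958 CPM in control and 3187 and 2749 CPM in cKO mice (log2 difference 0.02, SE 0.27, adjusted p 0.999 by edgeR). Fxyd4 was at 2571 and 2820 against 1586 and 2501 CPM (-0.42, SE 0.29) and Npy at 628 and 1050 against 406 and 874 CPM (-0.45, SE 0.35), both with an adjusted p of 0.988 by edgeR. Of the genes that chose the nuclei, given as a description, Aqp2 stood at 8149 and 8198 against 5932 and 6717 CPM and Scnn1b at 528 and 481 against 828 and 661 CPM. With the genes of the rule left out, the median log2 difference was 0.02 over 17 sodium and aldosterone genes and -0.08 over 15 of water transport and vasopressin, where all genes had a median of 0.0001. None of the 9 AP-2 genes, 15 Hox genes and 26 collecting duct transcription factors tested was called, where 1 of all 10594 genes was (0.00944%).

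**Figure D4:**
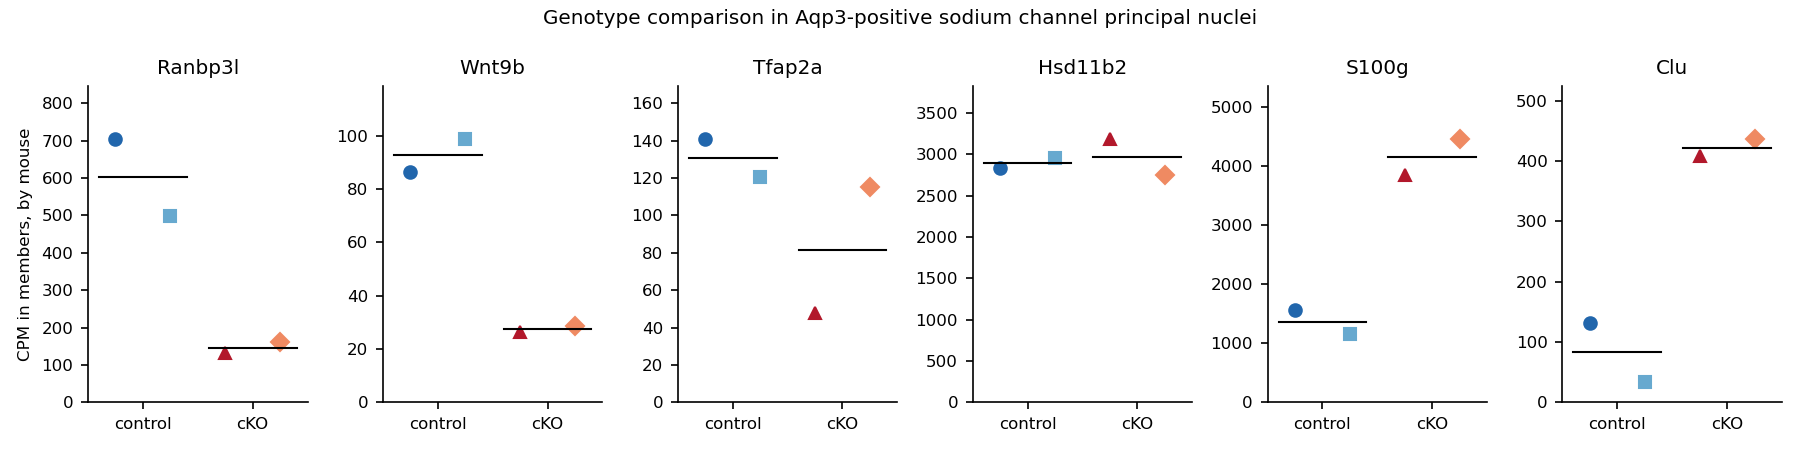
Levels in CPM (y axes, each from 0) of 6 genes in the Aqp3-positive sodium channel principal nuclei of the 2 control (blue) and 2 cKO (red) mice; black lines are group means. Ranbp3l, the called gene, is at 498 and 705 CPM in control and 132 and 161 CPM in cKO mice, and Hsd11b2 overlaps between the groups.

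Among genes that were not called, calcium and connecting tubule genes had the highest median log2 difference of the pathway lists, 1.08 over 13 genes tested, of which 10 lay above 0 and 5 were higher and 1 lower at an unadjusted p under 0.05 (2.59% and 2.34% of all genes). S100g was at 1565 and 1161 CPM in control and 3842 and 4462 CPM in cKO mice (log2 difference 1.60, SE 0.28, adjusted p 0.0891 by edgeR; adjusted p 4.16e-09 to 0.999 over the alternatives). The 5 members with most held 1337 of its 3308 UMIs. Calb1 was at 1033 and 289 against 1807 and 909 CPM, overlapping, and Stc1, stanniocalcin 1, at 45.5 and 59.3 against 132 and 132 CPM (1.26, SE 0.32, adjusted p 0.398). Vdr was at 91.0 and 47.5 against 216 and 104 CPM (1.40, SE 0.38, adjusted p 0.470). The share of members with 10 or more Slc8a1 UMIs was also higher in both cKO mice, as given above. In members under 10 Slc8a1 UMIs the S100g difference was 1.40 (adjusted p 0.999 by edgeR).

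Clu, the clusterin gene, had the smallest p among the genes that were higher, with 132 and 33.6 CPM in control and 408 and 437 CPM in cKO mice (log2 difference 2.54, SE 0.41, adjusted p 0.0608 by edgeR and 7.38e-15 to 1.00 over the alternatives). It was detected in 53 members, and 5 of them held 124 of its 292 UMIs. Kcnh5, a potassium channel gene, was at 59.1 and 57.3 against 182 and 150 CPM and Rragd, a GTPase of the mTORC1 pathway, at 40.9 and 69.2 against 178 and 150 CPM. Slit2, a guidance ligand, was at 209 and 204 against 569 and 426 CPM. In each the cKO values were above the control values, with adjusted p from 0.226 to 0.267 by edgeR. Rtl4, with 47 of its 55 UMIs in 5 members, Irs1, with 38 of 65 in 5, Rbfox1, and Slc4a9, a bicarbonate transporter of type B intercalated cells with 71 of 91 in 5, were also among the higher genes with the smallest p. Of the 6 type B genes tested, 5 were higher and 0 lower at an unadjusted p under 0.05, where 2.59% of all genes were higher, with 0 called and a median log2 difference of 2.13. Slc26a4 was at 250 and 3.95 CPM in control and 386 and 460 CPM in cKO mice, in the 15 members described above, and the summed level of the list was higher in both cKO mice than in both controls.

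Besides Ranbp3l and Wnt9b, the 10 lower genes with the smallest p were Mgll, a lipase, Tigd2, Frem2, Tspan5, Dcdc2a, Il34, Slc7a1, an amino acid transporter, and Ephx2, an epoxide hydrolase, with log2 differences from -2.46 to -1.24 and adjusted p from 0.284 to 0.470 by edgeR. Mgll stood at 214 and 200 CPM in control and 69.6 and 104 CPM in cKO mice, and Tigd2 at 95.5 and 94.9 against 26.4 and 34.5 CPM.

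Frem2, which anchors epithelia to the basement membrane, was 1 of 6 genes of the basement membrane and matrix list that were lower at an unadjusted p under 0.05, of 19 tested, with 0 higher and 0 called, where 2.34% of all genes were lower. The list median was -0.41, and 16 of the 19 lay below 0. Frem2 was at 168 and 241 CPM in control and 81.6 and 104 CPM in cKO mice (-1.24, SE 0.31). Col4a3, a collagen IV chain, was at 532 and 660 against 358 and 334 CPM (-0.81, SE 0.26), Hspg2, perlecan, at 132 and 119 against 74.4 and 34.5 CPM (-1.05, SE 0.35), and Lamb1, a laminin chain, at 205 and 221 against 122 and 150 CPM (-0.70, SE 0.28). Npnt, nephronectin, and Col4a1 made up the 6, and in each of the 6 both cKO values were below both controls, where 33.1% of all genes did not overlap in either direction. In all other nuclei the cKO values were also below both controls for Frem2 (39.5 and 60.6 against 25.2 and 36.4 CPM), Hspg2 (26.1 and 39.4 against 18.9 and 19.3 CPM), Npnt (198 and 269 against 143 and 146 CPM) and Col4a1, and overlapped for Col4a3 and Lamb1. These levels also depend on the mix of cell types, as given for Ranbp3l, and its part was not tested.

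In the Wnt list 4 of 28 genes were lower and 2 higher at an unadjusted p under 0.05, with 0 called and a median of -0.41, against 2.34% and 2.59% of all genes. After Wnt9b, Tcf7l1, a transcription factor of the pathway, had the smallest p, at 273 and 233 CPM in control and 125 and 127 CPM in cKO mice (-1.01, SE 0.28, adjusted p 0.485 by edgeR). The receptors Fzd1 and Fzd6 were lower with 48 and 36 UMIs in all. Dkk3 and Sfrp1, secreted Wnt inhibitors, were the higher ones, with 19 and 14 UMIs. In tight junctions, Cldn8 was at 450 and 558 against 254 and 328 CPM (-0.84, SE 0.27, adjusted p 0.770 by edgeR).

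No clock gene was called, where 1 of all 10594 genes was (0.00944%). The genotype was not tested in the other nuclei, whose values are given as a description. Of 22 genes tested in the list of glucocorticoid response and clock genes, 7 were higher and 2 lower at an unadjusted p under 0.05, against 2.59% and 2.34% of all genes. Per2 was at 13.6 and 25.7 CPM in control and 64.8 and 138 CPM in cKO mice, Dbp at 18.2 and 11.9 against 60.0 and 69.0 CPM, and Nr1d1 (REV-ERBα) at 31.8 and 13.8 against 91.2 and 46.0 CPM. Nr1d2, Tef, Bhlhe40 and Cdkn1a, a cell cycle inhibitor with 13 UMIs, were the other higher ones, while Arntl (BMAL1), which activates Per and Rev-erb genes, was at 54.6 and 51.4 against 26.4 and 11.5 CPM and Npas2 was lower too. In all other nuclei Per2 was at 26.2 and 24.6 against 47.2 and 129 CPM, Dbp at 25.5 and 20.3 against 57.0 and 46.8 CPM, and Arntl at 31.7 and 46.9 against 19.8 and 12.6 CPM, with both cKO mice on the same side of both controls as in the members. Nr1d1 overlapped there, at 34.2 and 17.3 against 38.8 and 15.6 CPM. The hour at which each mouse was killed is not in the labels, and its part in these values was not tested.

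**Figure D5:**
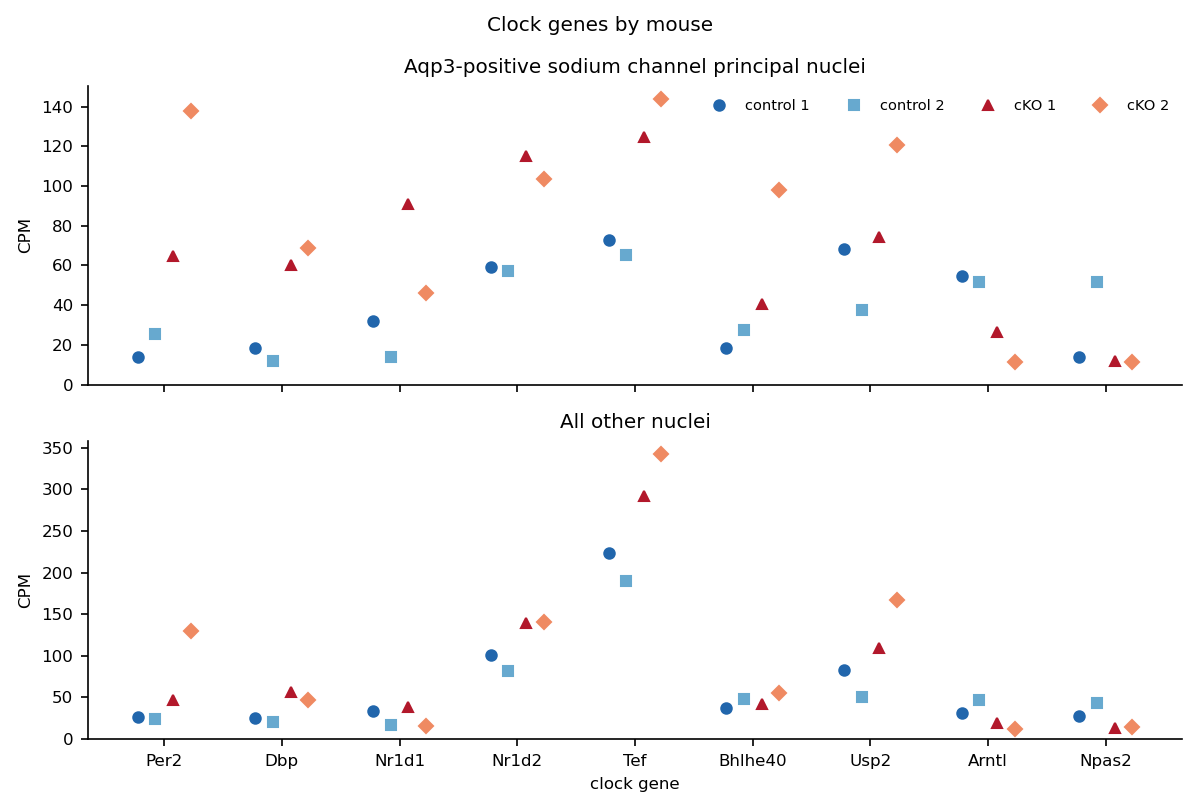
Levels of 9 clock genes (CPM) by mouse in the Aqp3-positive sodium channel principal nuclei (top) and all other nuclei (bottom). In the members, Per2 is at 13.6 and 25.7 CPM in control and 64.8 and 138 CPM in cKO mice, and Arntl lies higher in control mice in both panels.

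Whether the genotype difference itself differed between Aqp3-positive and Aqp3-low nuclei was tested as an interaction in edgeR over 11192 genes. In the Aqp3-positive nuclei 2 genes (0.0179%) had a higher and 2 (0.0179%) a lower difference, Rorb and Myo5a, and Gdf15 and Angpt1, and DESeq2 called 0; at an unadjusted p under 0.05 there were 126 (1.13%) and 105 (0.938%). Ranbp3l, at -0.21 (SE 0.61), Tfap2a, at -0.33 (SE 0.73), and Wnt9b, at -1.92 (SE 1.41), did not pass, each with an adjusted p of 1.00 by edgeR. The 2 classes come from the same libraries, and 16 to 47 Aqp3-low nuclei per mouse entered the sums. In simulated counts the interaction test recovered 1% of 200 changed genes, so a gene that did not pass is not shown to have equal differences.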

How the data were processed

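Single-nucleus RNA-seq (10x 3′ v3.1) of kidney slices trimmed of cortex to enrich for the medulla was analysed in 2 control and 2 cKO mice, 1 library per mouse. Per the labels and the study's methods, the authors made the deposited raw UMI counts with Cell Ranger 3.0.2 against mm10; the files hold 31053 genes and 6794880 barcodes each, without normalization. Nuclei were the top 10000 barcodes of a library by UMIs, limited to 501 to 3999 genes and under 5% mitochondrial UMIs. Doublets were scored with Scrublet (scanpy 1.11.5), the highest scores being called, 4.35 to 6.40% of a library, and were kept in the main result. Summed UMIs of a mouse and class were tested with edgeR 4.0.16 (quasi-likelihood, TMM, at least 10 UMIs in all, Benjamini-Hochberg adjusted p under 0.05) in R 4.3.3. Classes were compared with the mouse as a term, and the gates of the classes were set on the same counts, so the genes of the rule were left out of the list counts of those comparisons. The SE is the log2 difference divided by the square root of F. DESeq2 1.42.0, other scalings, filters, gates and left-out mice were alternatives. Tests were tried first on simulated counts with 200 changed genes, some of them 4-fold. The genotype test recovered 34% of these (58% of the 4-fold ones) and the interaction test 1% (2%). The comparison with Aqp3-low nuclei recovered 36% (50%) and that with nuclei without the channel 45% (66%). Named genes were, by a written rule, the marker and AP-2 genes, up to 10 genes a direction and the leading genes of each list. Some genes that this rule names are not reported here. The members and the gene lists were chosen with earlier results of these data known. Library depth and precision are given in the report, and intervals cover counting error only.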

Additional observations from a re-analysis of the deposited data

Results flagged for a closer look

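In 4 genes the genotype difference itself differed between the Aqp3-positive and the Aqp3-low sodium channel nuclei by the interaction term of edgeR's quasi-likelihood test. Values are in the order control 1, control 2, cKO 1 and cKO 2. Rorb, a nuclear receptor gene, stood at 13.6, 0, 26.4 and 127 CPM in Aqp3-positive and at 0, 72.9, 0 and 0 CPM in Aqp3-low nuclei (difference of the log2 differences 10.12, SE 2.02, adjusted p 0.00629), where 3 of 4 Aqp3-low libraries were at 0, so the size is no bound. All 36 Rorb UMIs in members lay in 5 nuclei, 21 of them in 1 nucleus. Myo5a, a myosin motor gene, was at 91.0, 25.7, 113 and 121 CPM against 110, 109, 9.63 and 15.9 CPM (4.44, SE 0.99, adjusted p 0.0291), and 60 of its 101 UMIs in members lay in 5 nuclei, 33 of them in 1. Gdf15, a stress-induced cytokine gene, was at 132, 338, 93.6 and 115 CPM against 44.0, 124, 77.1 and 714 CPM (-2.88, SE 0.64, adjusted p 0.0291). Angpt1, an angiopoietin gene, was at 159, 67.2, 101 and 34.5 CPM against 0, 21.9, 154 and 206 CPM (-3.79, SE 0.88, adjusted p 0.0443). The Aqp3-low sums were small, from 45428 UMIs in control 1 to 137093 in control 2. Low values of Myo5a and Angpt1 in these sums rest on few UMIs. Of 11 alternatives, the call was lost in 6 for Rorb, 7 for Myo5a, 8 for Gdf15 and 9 for Angpt1. DESeq2 called 0 genes in either direction.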

How the results depend on the processing

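Over the genes named, 2023 values kept their direction under an alternative and, where an adjusted p was given, their side of the threshold. Values without an adjusted p were judged on direction alone. The threshold was newly passed by 154 values, 74 no longer passed it and 17 turned direction. The cause was not tested. For the genotype difference, the lower count of 1 became 14 with no filter on low counts, 0 with doublets left out, 0 at 3 or more Aqp3 UMIs, 4 with no Slc12a1 and Slc12a3 limit and 2 under 1% mitochondrial UMIs, and 10 to 18 with 1 mouse left out. The higher count of 0 became 1 under DESeq2, thinning to 2000 UMIs, 1 or more Aqp3 UMIs and subtraction of free RNA, 39 with no filter, 3 with no Slc12a1 and Slc12a3 limit, 3 with these at 0, 18 under 1% mitochondrial UMIs, 3 at an adjusted p under 0.1, and 6 to 59 with 1 mouse left out. With alternatives chosen after seeing the data it became 1 without Calb1 nuclei, under 3 proximal tubule UMIs, under 3 intercalated cell UMIs and under 10 Slc8a1 UMIs. With the replicate number as a block (replicate block) it was 25 lower and 44 higher. Over the members, same-numbered mice deviated together with a correlation of 0.130. Whole libraries were alike by number. Control 1 and cKO 1 held 42138345 and 44964099 UMIs, control 2 and cKO 2 24998797 and 22179410. Nuclei kept were 7738 and 7998 against 5430 and 6177, with median mitochondrial percentages of 1.66 and 1.05 against 0.671 and 0.417. The labels do not say what the number stands for, and with 2 pairs the numbers do not show that mice were paired. Against Aqp3-low nuclei, 369 higher and 115 lower genes became 242 higher with RLE factors, 113 and 49 under DESeq2, 230 and 41 after thinning, 44 and 4 without Calb1 nuclei (chosen after seeing the data), and 87 to 259 and 35 to 118 with 1 mouse left out. Against nuclei without the channel, 1042 higher and 912 lower became 397 and 348 under DESeq2, 577 and 441 after thinning, and 664 to 942 and 582 to 781 with 1 mouse left out. For the interaction, 2 higher and 2 lower became 0 and 0 under DESeq2, after thinning and without Calb1 nuclei, 0 and 1 with doublets left out, 0 lower with no filter, 1 lower with Aqp3-low nuclei allowed 1 UMI, and 0 to 3 and 0 to 2 with 1 mouse left out. The share difference of -0.54 percentage points became 6.82 over Aqp2 nuclei, 0.29 without control 2, and -1.38 to 0.29 with 1 mouse left out. Turned values were, for the genotype, Klk1 at 1.16 (1 or more Aqp3 UMIs), 1.34 (3 or more), 2.34 (under 1% mitochondrial), 1.53 (no Calb1 nuclei), 0.77 (under 10 Slc8a1 UMIs) and -3.17 to 0.52 (1 mouse left out), against -2.13; Hsd11b2 at -0.0078 (3 or more Aqp3 UMIs), -0.039 (2 or more channel UMIs), -0.11 (no Calb1 nuclei) and -0.084 to 0.12 (1 mouse left out); Alcam at 0.10 (2 or more channel UMIs) and -0.59 to 0.24, Aqp3 at -0.012 to 0.40 and Npy at -1.08 to 0.037 (1 mouse left out). Klk1 against Aqp3-low nuclei was 1.35 without Calb1 nuclei and the Slc4a9 interaction -3.20 to 9.48 with 1 mouse left out. Of the 186 Klk1 UMIs in members, 115 lay in 1 nucleus. A share over nuclei under 3 proximal tubule UMIs gave no usable value, since Kap was in nearly every nucleus, and was run without Kap, an alternative chosen after seeing the data. With 2 mice a group, and 47 members in cKO 2, a difference that misses the threshold does not show equal levels.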

Other observations

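Several genes of groups not described above were called between the Aqp3-positive sodium channel nuclei and their neighbours, by edgeR with the mouse as a term. Over all genes, 3.3% were higher and 1.03% lower than in Aqp3-low nuclei. The shares were 8.91% and 7.8% against nuclei without the channel. Among 14 genes of prostaglandin, endothelin and nitric oxide signalling, Ednrb, an endothelin receptor, was higher than in Aqp3-low nuclei by 1.69 on the log2 scale, Ptger1, a prostaglandin E2 receptor, by 1.51 and Ptgs1, a cyclooxygenase, by 1.09, while Abcc4, a prostaglandin exporter, was lower by -1.01. Against the Aqp3-positive nuclei without the channel, Ednrb was higher by 3.05 and Hpgd, which degrades prostaglandins, by 3.91, while Ptges, which makes prostaglandin E2, was lower by -1.62. Of 14 EGF family genes, 1 was higher and 1 lower than in Aqp3-low nuclei, against 3.3% and 1.03% of all genes. Compared with nuclei without the channel, 2 were higher and 4 lower, against 8.91% and 7.8% of all genes. The ligand Btc was higher in both comparisons, by 1.48 and 2.74, and the ligand genes Hbegf and Tgfa were lower in the second, by -1.39 and -1.09.

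Among 27 collecting duct transcription factors, 8 were higher and 4 lower than in nuclei without the channel, where 8.91% of all genes were higher and 7.8% lower. The higher ones included Tfcp2l1 (log2 difference 3.06), a factor of collecting duct cell fate, Emx1 (4.45), Esrrg (2.91) and Lhx1 (2.15), and Klf5 was lower by -1.43. Of 18 nuclear-encoded respiratory chain genes 10 were higher and 0 lower in the same comparison, from 0.51 to 1.10. Against Aqp3-low nuclei, 1 of 26 transcription factors was called, Esrrg, at -0.70, near the share over all genes (3.3% higher and 1.03% lower).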
